A study of Strongylocentrotus purpuratus with 191 samples.

Results

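Wnt8, frizzled9, B-catenin and Dkk are 4 of the 74 genes of a sea urchin developmental gene panel, and they name a ligand, a receptor, the effector and an antagonist of the Wnt/beta-catenin pathway. They were found by their names in the gene column of the probe table. The authors' normalized table held 14 probes of these genes among its 336 probes, with 4 each for Wnt8, frizzled9 and B-catenin and 2 for Dkk. The non-normalized table held 5 probes of each gene, so 6 of the 20 were left out of the normalized table.

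The animals were purple sea urchins, Strongylocentrotus purpuratus, and their embryos were raised in artificial sea water to the mid-gastrula stage and assayed with Illumina's DASL assay, in which paired oligonucleotides are joined on cDNA, amplified and read on a bead array. Cultures were grown at 12C (64 cultures), 15C (63) or 18C (64). Their labelled sampling times, for which no unit is stated, ran from 36.85 to 38.12 at 12C, from 27.65 to 29.05 at 15C and from 22.53 to 23.77 at 18C, so temperature and sampling time cannot be told apart. Their parents were 8 females and 8 males in 2 blocks, named 3 and 4, and each block crossed 4 females with 4 males in all 16 ways. Each of the 32 crosses had 2 cultures at each temperature, except that the cross of female C4 with male D4 had 1 at 15C. Females and males carry names of the same form, so A3 names both a female and a male. A block filled a plate of its own, and a difference between blocks cannot be told apart from one between plates.

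In canonical Wnt signalling a secreted Wnt ligand binds a Frizzled receptor and an LRP co-receptor, which stops the complex that holds Gsk-3 from marking beta-catenin for destruction. Beta-catenin then enters the nucleus and, with TCF, switches on target genes. Dickkopf proteins are secreted antagonists that in vertebrates bind the LRP co-receptor. In sea urchins, beta-catenin enters the nuclei of the vegetal cells of the cleaving embryo, where it is required for endoderm and mesoderm, and wnt8 is among the first genes expressed in those cells.

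The probe sequences on which the results below turn are printed 5′ to 3′ as the deposited table gives them. The 5 Dkk probes are shown because only the first 2 of them are in the normalized table. In probe 5091 the capitals mark a run of 15 bases that is also found, on the opposite strand, in a probe of Otp, the longest run that any of the 20 probes shares with a probe of another gene.
Dkk 5846 (exon 2): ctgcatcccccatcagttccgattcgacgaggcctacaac
Dkk 3440 (exon 3): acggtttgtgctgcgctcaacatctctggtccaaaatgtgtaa
Dkk 5091 (exon 1): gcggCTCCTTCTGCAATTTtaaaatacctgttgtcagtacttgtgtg
Dkk 119 (exon 2): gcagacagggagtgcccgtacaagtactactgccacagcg
Dkk 1790 (exon 2): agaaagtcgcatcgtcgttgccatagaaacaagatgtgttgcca

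Probe 10 of Wnt8 is shown because it was the Wnt8 probe that changed with temperature. The other 3 are shown because they separated parents most widely among the probes of these 4 genes, and 2 of them, frizzled9 3606 and B-catenin 5246, were left out of the normalized table.
Wnt8 10 (exon 5): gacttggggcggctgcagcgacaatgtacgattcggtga
frizzled9 3606 (exon 1): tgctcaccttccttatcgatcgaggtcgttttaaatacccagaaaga
frizzled9 5310 (exon 1): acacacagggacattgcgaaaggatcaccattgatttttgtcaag
B-catenin 5246 (exon 15): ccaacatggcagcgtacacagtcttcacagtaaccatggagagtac

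The 20 probes were 39 to 47 bases long. Levels below are log2 values of the authors' normalized table, in which each probe has its centre at 0 on either plate, so a level in one block cannot be set against a level in the other. A gene's level was the mean of its probes, a called result is one with a limma adjusted p under 0.05 over all 74 genes, and changes are given ± SE. The median level of Endo16, a marker of the gastrula's gut, exceeded the negative controls by 2.91 log2 units (block 3) and 4.64 (block 4). That of SM30-E exceeded them by 1.19 and 2.46. At 12C the panel median before normalization averaged 9.67 against 7.44 for the negative controls in block 3, and 12.2 against 8.10 in block 4. A level above the negative controls was therefore no test of the stage. The median panel signal before normalization was lower in block 3 at 12C (9.67 ± 0.280, log2, SD) than at 15C (9.97 ± 0.299) and 18C (10.0 ± 0.322), and was 12.2 at each temperature in block 4. The SD between the 2 cultures of a combination was 0.17 for B-catenin, 0.22 for Wnt8, 0.32 for frizzled9 and 0.44 for Dkk, against a median of 0.19 over the panel.

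The antagonist Dkk rose between 12C and 18C by 0.38 ± 0.09 (limma adjusted p = 0.00176, higher in 24 of 32 crosses), and was the 1 gene of the 4 called there, where 17.6% of the panel's genes were called. It was also the 1 of the 4 called for 15C against 12C (0.30 ± 0.09, limma adjusted p = 0.0316, 4.05% of genes called). That call was lost without 9 of the 16 parents left out one at a time, with changes of 0.20 to 0.31 and adjusted p of 0.0582 to 0.514. It was also lost without either replicate (0.26 and 0.32, limma adjusted p = 0.241 and 0.798), and the 18C call without replicate 2 (0.36, limma adjusted p = 0.0513). None of the 4 was called for 18C against 15C (4.05% of genes called; limma, 0 of the 4 with an unadjusted p under 0.05). In block 4 at 18C the ligand Wnt8 was called as well. The RNA came from whole cultures, so a change in the number of cells that express a gene and a change in RNA per cell cannot be told apart.

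**Figure D1:**
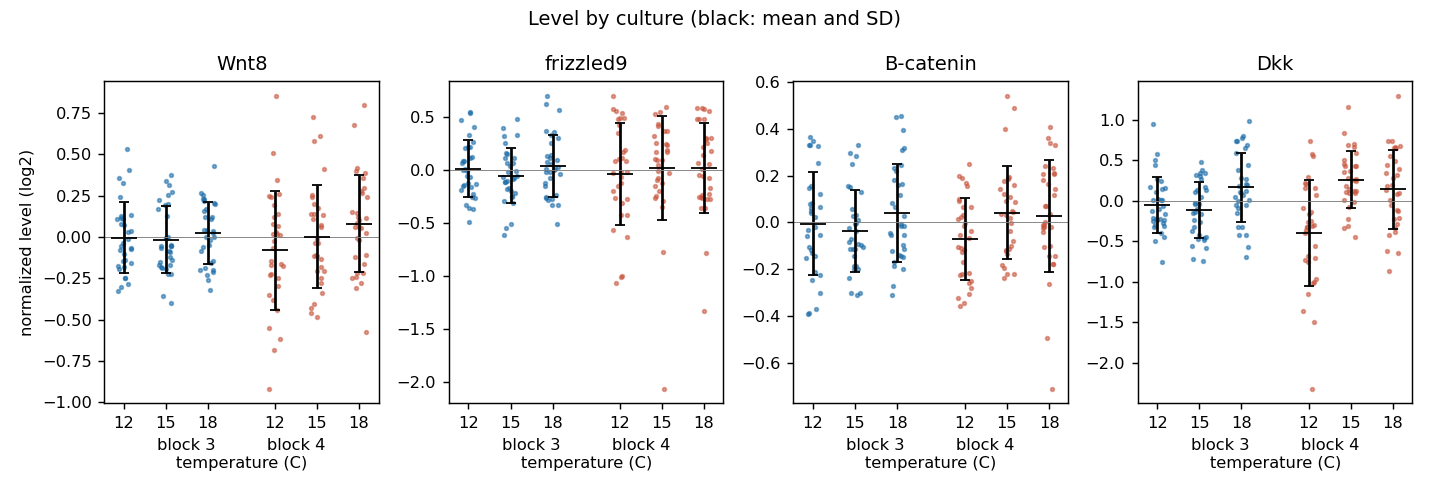
Normalized level (log2) of each gene in every culture, by block and temperature; each point is a culture and the black bar and whiskers are the mean and SD. The 12C cultures of block 4 reach lower than the others for Dkk, and the groups overlap for all 4 genes.

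Wnt8 levels at 12C, 15C and 18C overlapped in both blocks. In block 4 they ran from -0.92 to 0.85 with a median of -0.05 at 12C, from -0.48 to 0.73 with a median of -0.03 at 15C, and from -0.57 to 0.80 with a median of 0.07 at 18C. In block 3 the medians were -0.05, -0.05 and 0.03. Over both blocks Wnt8 differed by 0.09 ± 0.04 between 18C and 12C and was higher at 18C in 22 of 32 crosses (limma adjusted p = 0.0658). In block 4 it rose by 0.16 ± 0.05 (limma adjusted p = 0.0208), in 11 of 16 crosses, where 12.2% of genes were called. In block 3 the difference was 0.03 ± 0.05, also above 0 in 11 of 16 crosses, with 2.7% of genes called. The difference between the blocks was 0.13 ± 0.07 (limma adjusted p = 0.727).

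The block 4 call of Wnt8 came from 1 of its probes. Probe 10, on exon 5, rose by 0.48 ± 0.14 (limma adjusted p = 0.0230 over 336 probes). In the same contrast probe 989, on the same exon, differed by 0.17 ± 0.07, probe 186 on exon 4 by 0.06 ± 0.05 and probe 920 on exon 3 by -0.07 ± 0.05. Before normalization probe 10 lay 2.08 ± 0.77 log2 units (SD, n = 32) above the negative controls at 12C in block 4, 2.31 ± 0.83 at 15C (n = 31) and 2.66 ± 0.75 at 18C (n = 32). It was detected in 49.0% of block 3 cultures and 68.4% of block 4 cultures, where detected means above all but 0.05 of the array's 27 negative controls. The gene's call was lost in 8 of 16 alternative settings, among them the brightest probe (0.06 ± 0.05), leaving out either replicate and adding the probe of exon 6 (0.13 ± 0.05, limma adjusted p = 0.0681). It was also lost without female A4 (0.10, adjusted p = 0.325), male A4 (0.12, adjusted p = 0.101) or male B4 (0.13, adjusted p = 0.150).

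frizzled9 showed no temperature change past the threshold in any contrast. In block 3 its levels ran from -0.49 to 0.55 at 12C, from -0.61 to 0.48 at 15C and from -0.51 to 0.70 at 18C, with medians of 0.00, -0.07 and 0.01. In block 4 they ran from -1.07 to 0.70, from -2.07 to 0.60 and from -1.33 to 0.59, with medians of -0.02, 0.10 and 0.03. The groups overlapped almost wholly. The change from 12C to 18C was 0.04 ± 0.06 and was above 0 in 16 of 32 crosses (limma adjusted p = 0.690).

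B-catenin, the effector, had the smallest SD between replicates of the 4. Its levels in block 3 ran from -0.39 to 0.36 at 12C, from -0.31 to 0.33 at 15C and from -0.31 to 0.45 at 18C, and in block 4 from -0.36 to 0.25, from -0.24 to 0.54 and from -0.71 to 0.41. Between 12C and 18C it differed by 0.07 ± 0.03, above 0 in 23 of 32 crosses (limma adjusted p = 0.136). With array medians removed the difference was 0.07 and was called (limma adjusted p = 0.0264), as in 4 other settings, while with the plate row as a covariate it was -0.14 ± 0.08 (limma adjusted p = 0.249). The 4 normalized probes, on exons 5, 14 and 15, differed by 0.01 to 0.10 and none was called, where 8.93% of the 336 probes were. In the non-normalized table with array medians removed its 5 probes differed by 0.04 to 0.13, and probes 2906 (0.09 ± 0.03, limma adjusted p = 0.00676) and 2158 (0.10 ± 0.04, limma adjusted p = 0.0254) were called, where 23.4% of the 384 probes were.

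Dkk stood low in the 12C cultures of block 4. There its levels ran from -2.32 to 0.73 with a median of -0.31, against -0.44 to 1.16 with a median of 0.26 at 15C and -0.86 to 1.30 with a median of 0.16 at 18C. In block 3 they ran from -0.75 to 0.95 with a median of -0.11 at 12C, from -0.74 to 0.48 with a median of -0.12 at 15C and from -0.69 to 0.99 with a median of 0.12 at 18C. The 3 temperatures overlapped in each block.

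In block 4, Dkk rose by 0.67 ± 0.11 from 12C to 15C (limma adjusted p = 1.95e-06, 12.2% of genes called) and by 0.54 ± 0.11 from 12C to 18C (limma adjusted p = 1.20e-04). All 16 crosses of block 4 were higher at 15C than at 12C, by 0.02 to 1.56, and 14 of 16 were higher at 18C. The 16 crosses of a block share 4 females and 4 males, and the temperature tests took the changes of crosses as independent. In block 3, 8 of 16 crosses were higher at 15C, with changes from -1.15 to 0.56 and a mean of -0.07 ± 0.11 (limma adjusted p = 0.799, 1.35% of genes called), and 10 of 16 were higher at 18C, with a mean of 0.21 ± 0.11 (limma adjusted p = 0.332). The change from 12C to 15C differed between the blocks by 0.74 ± 0.15 (limma adjusted p = 4.56e-04), and the F test of the whole temperature response was called for Dkk alone among the 4 genes (F = 12.2, adjusted p = 0.00120), as for 16.2% of the panel. That call was lost without replicate 1 (F = 2.44, limma adjusted p = 0.587) and with the non-normalized values quantile-normalized within plates (F = 4.18, limma adjusted p = 0.364). The median gene of the panel differed between the blocks by 0.11 in the change from 12C to 15C. From 12C to 18C the difference between blocks was 0.33 ± 0.15 (limma adjusted p = 0.599). In block 4 the level did not go on rising past 15C: the difference between 18C and 15C was -0.13 ± 0.11 (limma adjusted p = 0.424), and in block 3 it was 0.28 ± 0.11 (limma adjusted p = 0.0932).

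**Figure D2:**
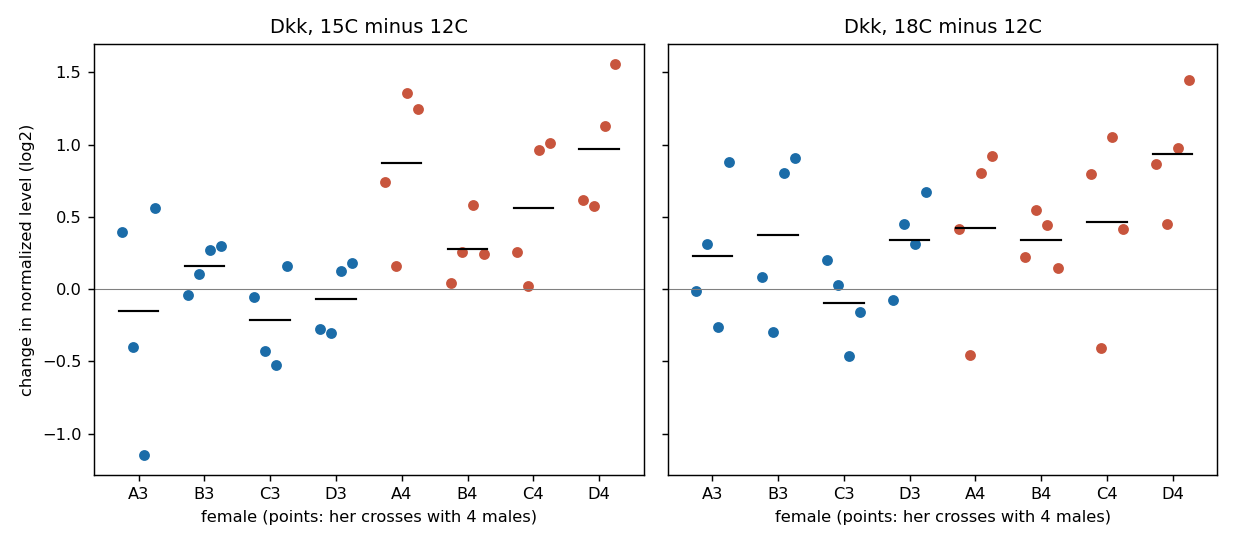
Change of Dkk (log2 of the normalized level) from 12C to 15C and from 12C to 18C in each cross, grouped by female; points are the crosses with 4 males in order of the males' names, blue for block 3 and red for block 4, and lines are the mean of a female's crosses. All block 4 crosses lie above 0 at 15C and 8 of 16 block 3 crosses do.

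Crosses of one block varied widely in the size of the Dkk change. By female, the mean change from 12C to 15C was 0.97 ± 0.47 (SD over 4 crosses) for D4, 0.88 ± 0.55 for A4, 0.56 ± 0.50 for C4 and 0.28 ± 0.22 for B4. By male, it was 1.01 ± 0.56 for D4, 1.01 ± 0.33 for C4, 0.42 ± 0.32 for A4 and 0.25 ± 0.23 for B4. In block 3 it was 0.30 ± 0.18 for male D3, whose 4 crosses were all higher at 15C, and -0.32 ± 0.65 for male C3. The sire-by-temperature test of Dkk had an unadjusted p of 0.0135 and an adjusted p of 0.499 (limma), so these differences between males did not pass over the panel, and the dam-by-temperature test gave an adjusted p of 0.621. Leaving out each parent in turn kept the 15C change in block 4 between 0.56 and 0.81 and called (8 of 8 parents of that block).

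The 2 Dkk probes of the normalized table were neither the brightest nor the dimmest of the 5. In block 4, probe 5846 exceeded the negative controls by 0.98 ± 0.79 log2 units at 12C (SD, n = 32), by 1.76 ± 0.57 at 15C (n = 31) and by 1.52 ± 0.78 at 18C (n = 32), and was detected in 69.8% of block 3 and 30.5% of block 4 cultures. Probe 3440 lay at 1.57 ± 1.03, 2.19 ± 0.73 and 2.22 ± 0.92 and was detected in 79.2% and 54.7%. The left-out probe 5091, printed above with its run shared with Otp, lay at 3.61 ± 0.38, 3.77 ± 0.33 and 3.85 ± 0.37 and was detected in every culture. Left-out probe 119 was the dimmest, with means of 0.34 in block 3 and 0.90 in block 4, and was detected in 22.9% and 15.8% of cultures, and left-out probe 1790, with means of 1.76 and 2.75, was detected in 97.9% and 84.2%. Otp is a homeobox gene of the embryonic ectoderm, and whether its transcript reached probe 5091 was not tested.

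In the non-normalized table with array medians removed, the 5 Dkk probes did not move by the same amount in block 4. From 12C to 15C probe 5846 rose by 0.75 ± 0.12 (limma adjusted p = 2.39e-05 over 384 probes, 1.56% of probes called) and probe 3440 by 0.57 ± 0.15 (limma adjusted p = 0.0299). Left-out probe 1790 differed by 0.27 ± 0.15, probe 5091 by 0.14 ± 0.07 and probe 119 by 0.10 ± 0.16, and none of the 3 was called. All 5 differences lay above 0, and in block 3 they ran from -0.10 to 0.02. The difference between probes was not tested. From 12C to 18C in block 4, 3 of the 20 probes of the 4 genes were called, beside 6.51% of all probes: Dkk 5846 (0.43 ± 0.12), Dkk 3440 (0.53 ± 0.15) and Wnt8 10 (0.48 ± 0.14). With all 5 Dkk probes averaged, the block 4 changes were 0.37 at 15C (limma adjusted p = 1.59e-04) and 0.30 at 18C (limma adjusted p = 0.00108).

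**Figure D3:**
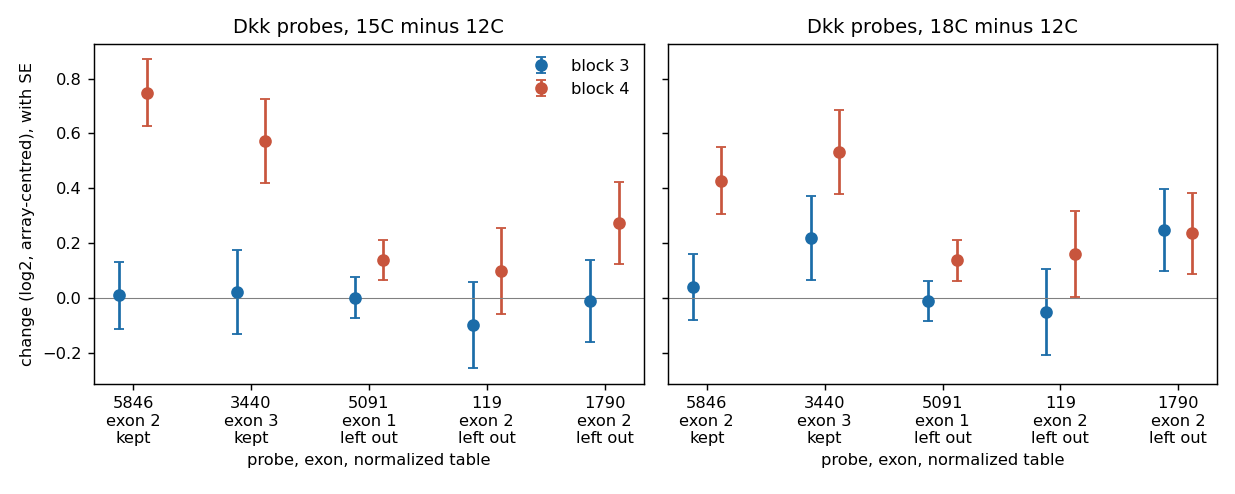
Change of each Dkk probe (log2, non-normalized values with array medians removed, points with SE) from 12C to 15C and from 12C to 18C in block 3 (blue) and block 4 (red), with the exon and whether the normalized table kept the probe. The kept probes 5846 and 3440 stand highest in block 4, and left-out probe 5091 lies at 0.14 there for 15C.

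Position on the plate moved with temperature. Rows A and B held 12C cultures, rows D and E 18C cultures with 1 exception, row C both of these (16 at 12C and 8 at 18C), and rows F, G and H mostly 15C cultures. No row held both 12C and 15C cultures, so the 12C to 15C change of Dkk cannot be told apart from plate row. With the row as a covariate the changes in block 4 were 0.46 ± 0.36 at 15C (limma adjusted p = 0.813) and 0.53 ± 0.29 at 18C (limma adjusted p = 0.747), with larger SEs than without it, and over both blocks -0.0150 ± 0.26 and 0.18 ± 0.20 (limma adjusted p = 0.963 and 0.569). Within row C of the block 4 plate, Dkk averaged 0.22 ± 0.33 in 4 cultures at 18C and -0.43 ± 0.60 in 8 at 12C (SD). In row C of the block 3 plate it averaged -0.17 ± 0.42 in 4 cultures at 18C and 0.06 ± 0.46 in 8 at 12C. The crosses in row C were only partly the same at 12C and 18C, and these within-row values were not tested. Those at both temperatures were female C4 with male B4 in block 4. In block 3 they were female B3 with male C3 and female A3 with male A3.

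Offspring of different mothers differed in the ligand, the receptor and the effector. Dam effects were called for Wnt8 (F = 17.6, adjusted p = 4.11e-06), frizzled9 (F = 10.2, adjusted p = 1.23e-04) and B-catenin (F = 5.05, adjusted p = 0.00421), and not for Dkk (F = 2.29, adjusted p = 0.0801), all from limma. A share of 3 of 4 genes lies near the background of 81.1% of genes called for dams. Sire effects were called for all 4 genes, with F = 10.2 for Wnt8 (adjusted p = 1.36e-04), 5.95 for B-catenin (adjusted p = 0.00290), 3.43 for Dkk (adjusted p = 0.0258) and 2.87 for frizzled9 (adjusted p = 0.0414), against a background of 75.7%.

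For Wnt8, female C3 stood apart in block 3: her offspring lay 0.23 ± 0.11 above the block mean (SD over 4 crosses), and those of A3, B3 and D3 at -0.08 ± 0.11, -0.09 ± 0.04 and -0.06 ± 0.11. In block 4 offspring of female B4 lay at 0.22 ± 0.09, of D4 at 0.03 ± 0.18, of C4 at -0.13 ± 0.20 and of A4 at -0.13 ± 0.18. All 4 crosses of C3 and of B4 were above their block mean. By male, offspring of D4 lay at 0.17 ± 0.12, of C4 at 0.04 ± 0.18, of A4 at -0.02 ± 0.18 and of B4 at -0.19 ± 0.23. The widest range between parents was 1.28-fold, for females and for males of block 4 alike.

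The order of mothers and fathers for Wnt8 held across temperatures in most cases. Female C3 was highest in block 3 at 12C (0.27), 15C (0.22) and 18C (0.19), and female B4 was highest in block 4 at 12C (0.28) and 18C (0.27), while D4 (0.12) was highest at 15C. Male B3 and male D4 were highest of their block and male A3 and male B4 lowest at each temperature. Tested one temperature at a time, the dam effect on Wnt8 was called at 12C (F = 7.24, limma adjusted p = 0.00203, 21.6% of genes called) and at 18C (F = 7.27, limma adjusted p = 0.00308, 14.9%), and gave F = 2.98 at 15C (limma adjusted p = 0.0535, 45.9%). Its sire effect was called at 12C (F = 4.77, limma adjusted p = 0.0280, 9.46% of genes called). At 15C and 18C, where 9.46% and 16.2% of genes were called, the adjusted p were 0.431 and 0.0921.

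For frizzled9, female D4 was highest in block 4 and female B3 in block 3, at every temperature. Offspring of D4 lay at 0.34 ± 0.13 and those of C4, the lowest, at -0.23 ± 0.19, a range of 1.48-fold. In block 3 offspring of B3 lay at 0.22 ± 0.07 and those of A3 at -0.14 ± 0.15, a range of 1.28-fold. These 2 females also had the highest culture stage scores of their blocks, 0.463 ± 0.0571 for D4 and 0.401 ± 0.0388 for B3 (SD over 12 combinations of male and temperature), and the dam effect on frizzled9 was not called with the mean stage score as a covariate (F = 2.23, limma adjusted p = 0.0974). At single temperatures the dam effect was called at 15C (F = 6.21, limma adjusted p = 0.00461), where 45.9% of genes were called. It was not called at 12C or 18C (21.6% and 14.9% of genes called), and no sire effect was called at a single temperature. The kept probes shared unequally in these ranges between females, in the non-normalized values with array medians removed. In block 4 probe 5310 ranged 3.76-fold, and probes 1042, 215 and 300 ranged 1.15-, 1.45- and 1.64-fold. Female C4 was lowest for probes 5310 and 1042 and not for 215 or 300. In block 3 probe 300 ranged 1.93-fold, and probes 1042, 215 and 5310 ranged 1.10-, 1.11- and 1.22-fold.

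B-catenin, as the mean of its probes, ranged less between parents. Its widest range was 1.16-fold, between male D4 (0.12 ± 0.08) and male C4 (-0.09 ± 0.06) of block 4, where male A4 lay at 0.07 ± 0.05 and male B4 at -0.09 ± 0.17. Among females, offspring of A4 lay at 0.11 ± 0.11 and of B4 at -0.08 ± 0.16 in block 4, and of B3 at 0.10 ± 0.03 and of A3 at -0.08 ± 0.15 in block 3. The dam effect was called at 15C (F = 3.47, limma adjusted p = 0.0376), where 45.9% of genes were called. It was not called at 12C or 18C, where 21.6% and 14.9% were. Without replicate 2 neither parent's effect was called. Single kept probes ranged more widely, in the non-normalized values with array medians removed. Probe 1886 ranged 1.50-fold between the females of block 3 and 1.47-fold between those of block 4. Probe 1225 ranged 1.45-fold between the males of block 4. Female D4 was highest of block 4 for probes 1225 and 2158 and lowest for probes 1886 and 2906.

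For Dkk the sire effect was called and the dam effect was not, and neither outcome held in every alternative setting. The sire call was lost in 5 of 15 settings, and the dam effect was called in 5 of 15 (lowest limma adjusted p = 0.00582). In the non-normalized values with array medians removed, dam effects were called for 3 of the 5 Dkk probes and sire effects for 1. Over all 384 probes the shares called were 70.6% and 28.9%. In block 4 offspring of male A4 lay at 0.20 ± 0.28 and those of male D4, highest there in the gene means of the other 3 genes, at -0.15 ± 0.21. In block 3 offspring of male C3 lay at 0.16 ± 0.09, all 4 crosses above the block mean, and those of A3 at -0.17 ± 0.11, all 4 below. The same 2 males were highest and lowest for B-catenin in the normalized gene means. Single probes with array medians removed differed from this. Male D3 was highest of block 3 for Dkk probes 5846 and 3440. Male C3 was lowest for B-catenin probes 1225 and 2906 and highest for probe 2158. The sire effect was called at 12C (F = 5.14, limma adjusted p = 0.0213, 9.46% of genes called). It was not called over all temperatures with the 5 probes averaged (F = 1.63, limma adjusted p = 0.273). Among females the offspring of C4 lay highest in block 4 (0.21 ± 0.25) and those of A4 lowest (-0.18 ± 0.12), and in block 3 the 4 female means lay between -0.05 and 0.04.

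**Figure D4:**
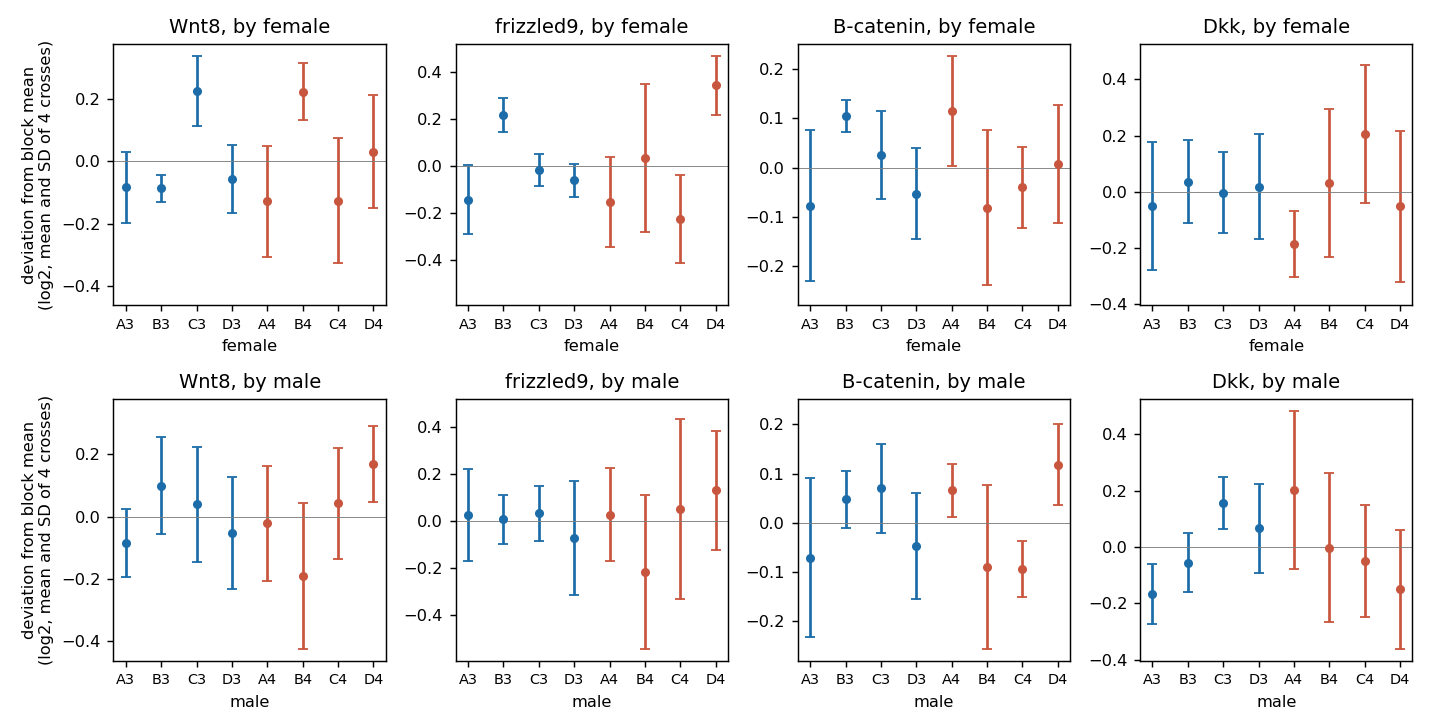
Deviation of the offspring of each female (top) and each male (bottom) from the block mean, as log2 of the normalized level, for the 4 genes; points and whiskers are the mean and SD of 4 crosses, blue for block 3 and red for block 4. In these gene means female C3 and female B4 stand high for Wnt8 and female D4 for frizzled9. Male D4 is highest of block 4 for 3 genes and lowest for Dkk.

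Over all cultures, after temperature and block, mothers took 29.8% of the variance of Wnt8, 24.6% of that of frizzled9, 12.5% of that of B-catenin and 1.90% of that of Dkk, against a median of 10.1% over the panel. Fathers took 15.4%, 4.07%, 15.0% and 4.10% in the same order, against 8.01%. The remainder took 54.9%, 66.9%, 71.1% and 83.5%, against 73.8%. It holds differences between cultures of 1 combination and also any cross-by-temperature variation, which had no term of its own. Dkk thus carried the smallest parental share and the largest remainder of the 4 genes. Sire by temperature took 8.28% for Dkk and 2.57% or less for the other 3.

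No parent-by-temperature or dam-by-sire effect was called for the 4 genes. In limma the dam-by-temperature test called 0% of the panel (0 of the 4 genes with an unadjusted p under 0.05), the sire-by-temperature test also 0% (1 of the 4, Dkk), and the dam-by-sire test 1.35% (0 of the 4). The adjusted p ran from 0.621 to 0.938 for dam by temperature and from 0.499 to 0.996 for sire by temperature.

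Probe by probe, the parents did not stand in the same order within a gene. In the non-normalized table with array medians removed, dam effects were called for 16 of the 20 probes and sire effects for 11, where 70.6% and 28.9% of all 384 probes were called. For frizzled9, female D4 was the highest female of block 4 for 4 of its 5 probes. For B-catenin no female of either block was highest for more than 2 of 5 probes. Male D4 was the highest male of block 4 for 3 of the 5 probes of Wnt8 and for 3 of the 5 of frizzled9. For B-catenin male D4 was highest for probes 1886 and 2906 and lowest for probes 2158 and 5246.

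The widest separations between parents lay in single probes. frizzled9 probe 5310 ranged 3.76-fold between the females of block 4, rank 2 of 384 probes there, and the 4 crosses of female D4 averaged 4.32 to 4.91 log2 units above the negative controls, while the other 12 crosses of that block averaged 1.83 to 3.11. In block 3 it ranged 1.22-fold between females. B-catenin probe 5246 ranged 3.78-fold between the females of block 4, rank 1, and 2.11-fold between those of block 3, rank 6, while the other 4 B-catenin probes ranged at most 1.50-fold in block 3 and 1.47-fold in block 4.

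frizzled9 probe 3606 split the block 3 crosses by father. The 4 crosses of male B3 averaged 1.75, 1.78, 1.87 and 2.01 log2 units above the negative controls, and the other 12 crosses of block 3 averaged 0.27 to 0.60. No cross mean lay between these groups, and the range between males was 2.84-fold, rank 2 of 384 probes. In block 4 both parents moved it: with female B4 the offspring of males A4, B4 and C4 averaged 0.97, 1.06 and 0.98 and those of male D4 2.81, while with female D4 all 4 crosses averaged 3.27 to 3.89. The other 4 frizzled9 probes, read on the same exon, ranged at most 1.30-fold between the males of block 3.

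B-catenin probe 5246 showed a like arrangement over pairs of parents. In block 3 the 4 crosses of male A3 averaged 3.11 to 3.48 log2 units above the negative controls with every female. The crosses of males B3, C3 and D3 averaged 2.68 to 3.18 with females A3 and B3 and 1.44 to 2.17 with females C3 and D3. In block 4 the crosses of female B4 averaged 2.48, 4.69, 3.34 and 2.09 with males A4, B4, C4 and D4, and the crosses of the other 3 females averaged 4.51 to 5.65. These are values of single probes, and whether sequence differences between parents under a probe bear on them was not tested.

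**Figure D5:**
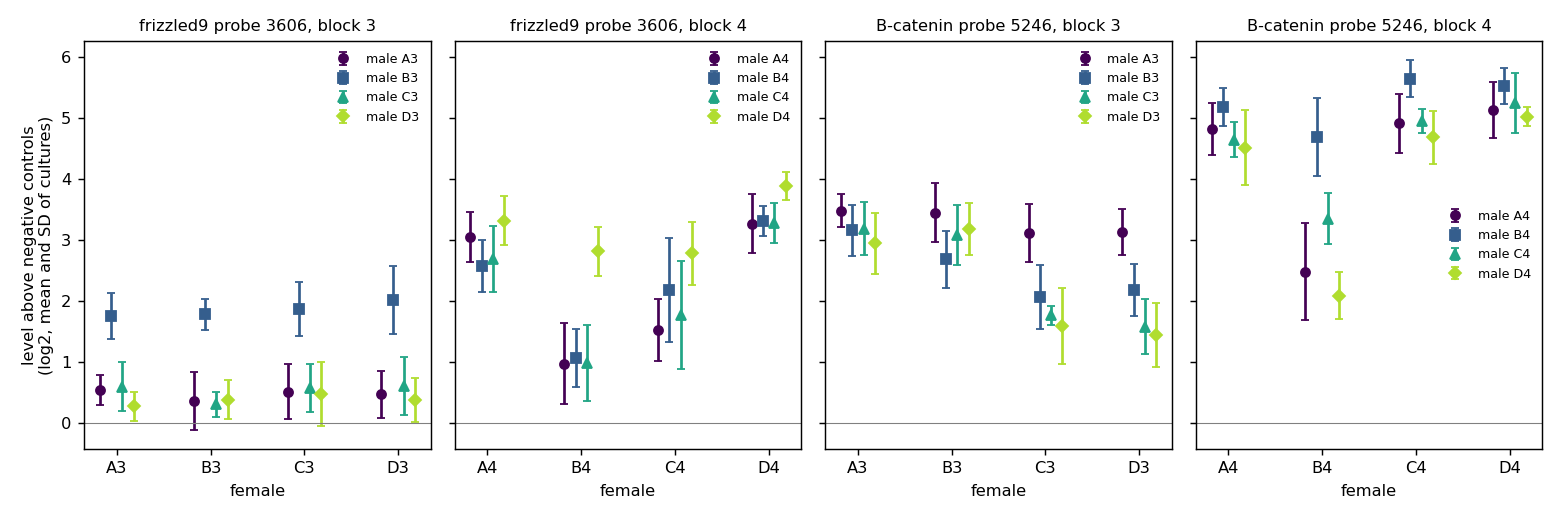
Level above the negative controls (log2, mean and SD of 5 or 6 cultures) of frizzled9 probe 3606 and B-catenin probe 5246 in every cross, by female on the x axis and by male as symbols, for each block. The crosses of male B3 stand alone above the others for probe 3606, and the crosses of females C3 and D3 with males other than A3 stand low for probe 5246.

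Culture stage was not followed by any of the 4 genes past the threshold. With cross and temperature in the model, the slope per unit of stage score was 1.32 ± 0.45 for frizzled9 (limma adjusted p = 0.0729), 1.03 ± 0.61 for Dkk (adjusted p = 0.472), 0.16 ± 0.25 for B-catenin (adjusted p = 0.807) and -0.54 ± 0.30 for Wnt8 (adjusted p = 0.433), where 1.35% of genes were called. In limma, 1 of the 4, frizzled9, had an unadjusted p under 0.05. The frizzled9 slope was 2.97 ± 1.06 for probe 5310 and 0.33 to 1.09 for its other 3 normalized probes. The stage scale is not stated in the labels.

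Of a list of Wnt/beta-catenin neighbours, 12 were on the panel: TCF and Gsk-3 of the pathway, 9 genes known in sea urchins as direct or indirect targets of nuclear beta-catenin (Blimp1-Krox, Eve, Hox11-13b, Bra, FoxA, gatae, Endo16, Pmar1 and SoxC), and soxb1, known there as an antagonist of beta-catenin input. None was called in limma for 18C against 12C (2 with an unadjusted p under 0.05), for 15C against 12C (1) or for 18C against 15C (1), beside 17.6%, 4.05% and 4.05% of the panel. Their median change from 12C to 18C was 0.01, against 0.02 for all genes and 0.08 for the 4 pathway genes. In block 4 alone, limma called 0 of the 12 for 18C against 12C (0 with an unadjusted p under 0.05) and 0 for 15C against 12C (3 with one), beside 12.2% of the panel in each contrast. All 12 lay above 0 for 15C against 12C there, with a median of 0.04 against 0.05 for all genes. For soxb1 the test of unequal temperature responses in the 2 blocks was called (F = 6.65, limma adjusted p = 0.0219), as for 16.2% of the panel, with changes from 12C to 15C of -0.07 ± 0.03 in block 3 and 0.04 ± 0.03 in block 4. The median gene of the panel changed by -0.04 and 0.05 in the same contrasts, so soxb1 lay close to it.

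Dams were called for 9 of the 12 neighbours and sires for 10, beside the 81.1% and 75.7% of the panel. Bra, a T-box transcription factor, had the largest dam F of the list (F = 21.7, limma adjusted p = 8.71e-07), followed by TCF (F = 12.7, adjusted p = 2.39e-05) and gatae (F = 8.33, adjusted p = 3.13e-04). The other dam calls were Pmar1, Eve, Endo16, Blimp1-Krox, Gsk-3 and FoxA. Pmar1 had the largest sire F (F = 14.8, limma adjusted p = 2.80e-05), followed by SoxC (F = 10.6, adjusted p = 1.12e-04), Bra and Gsk-3 (F = 7.47, adjusted p = 8.15e-04), and Blimp1-Krox, Eve, gatae, soxb1, Endo16 and Hox11-13b were also called. TCF, the nuclear partner of beta-catenin, had no sire call (F = 1.32, limma adjusted p = 0.298).

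Over the 96 means of a cross at a temperature, with array medians and block means removed, Pearson's r between B-catenin and frizzled9 was 0.33, and the other pairs of the 4 lay between -0.10 and 0.10. The values differed between blocks. B-catenin with frizzled9 gave 0.63 in block 3 and 0.24 in block 4, B-catenin with Dkk gave 0.36 and 0.02, and Wnt8 with frizzled9 gave -0.26 and 0.17. With array medians kept, the pairs of the 4 ran from 0.10 to 0.55 over both blocks. These means share parents, arrays and the panel median, and the values are given as a description. The panel genes most like Wnt8 were Eve (r = 0.55), Bra (0.49) and TCF (0.43), those most like frizzled9 were Nk1 (0.44), Gsk-3 (0.42) and Pax2-5-6 (0.40), and those most like B-catenin were Blimp1-Krox (0.48), Gsk-3 (0.42) and Fmo2 (0.40). Those most like Dkk were Mitf (0.50), BMP2-4 (0.41) and Lhx2 (0.36). With array medians kept the r for the leading genes were higher, 0.73 for B-catenin with Blimp1-Krox and 0.57 for Dkk with Mitf.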

How the data were processed

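Expression was measured in 191 cultures with a custom DASL bead array. The deposited normalized values are on a log2 scale, with every probe centred at 0 within its plate. The deposited non-normalized table, from 7.17 to 14.7, was read as log2 intensity. The submitters' processing notes name BeadStudio, and the normalization method and genome build are not given in the sources used here. The series' value table held the same values as the normalized table (largest difference 0). Of the non-normalized table's columns, 1 was mapped to no sample and not used.

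Probe log2 values were averaged by gene. Temperature was tested on the 96 means of a cross at a temperature, blocked by cross, parents on 32 cross means, and stage on 191 cultures, in limma over all 74 genes (probes: 336 or 384), with Benjamini-Hochberg adjustment and a threshold of 0.05. Variance shares came from lme4. The models were tested on simulated data whose noise was independent between genes and between cultures. Shifts of whole arrays or plate rows and dam-by-sire scatter were not simulated, so that test did not cover them. Named genes were the 4 members, called genes of the Wnt neighbour list and the 3 most correlated panel genes of each member. The members and lists were chosen with earlier results of these data known. The labels do not say whether replicates were separate fertilizations, so p-values from single cultures may measure technical spread. The number of cultures limits the precision.

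Alternatives changed the probes, normalization, arrays, replicates, parents, blocks and covariates; those with left-out probes, plate row or left-out parents for the temperature changes were added after seeing the data. A RefSeq symbol matched 1 (Wnt8) of the 4 gene names. The models were run with limma 3.58.1 and lme4 1.1.37 in R 4.3.3, and the tables and figures made with pandas 2.3.3, matplotlib 3.10.9 and numpy 2.4.6 in python 3.11.15.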

Additional observations from a re-analysis of the deposited data

Results flagged for a closer look

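The change of Dkk from 12C to 15C differed between the blocks by 0.74 (block 4 minus block 3), which is a difference between groups under the same contrast. Its plate row values stand beside the result in the text above.

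Within the 4 crosses of a parent, 1 cross lay far from the other 3 in 4 of 64 groups checked, and chance gives about 1 in 20. The values are deviations from the block mean on the log2 scale. Among the crosses of male D4, the cross with female B4 lay at 0.35 for Wnt8. Among those of male C3, the cross with female D3 lay at -0.0649 for B-catenin. For Dkk the cross of female A3 with male C3 lay at 0.29 among the crosses of A3, and the cross of female A4 with male C4 lay at -0.35 among those of male C4.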

How the results depend on the processing

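With the plate row as a covariate the Dkk calls were lost: the changes were 0.18 from 12C to 18C, -0.0150 from 12C to 15C (turned in sign), and 0.53 and 0.46 in block 4, the F between blocks was 1.82, and Wnt8 in block 4 at 18C was 0.20, not called. The cause was not tested, here and for the other losses below.

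The Dkk change at 15C over both blocks was also lost with the brightest probe and with detected probes (0.23 each), without the cross as a block (0.30) and with culture stage as a covariate (0.28). Block 3 alone gave 0.21 at 18C (not called) and -0.0671 at 15C. The Dkk F between blocks was lost with quantile normalization (4.18). Wnt8 at 18C in block 4 was lost with the brightest probe (0.0642), detected probes (0.11), left-out probes added (0.13), no cross block and stage as a covariate (0.16 each).

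The frizzled9 dam F was lost with stage as a covariate (2.23) and the B-catenin dam F in block 3 alone (4.23). The frizzled9 sire F was lost with the median of probes (2.02), detected probes (2.25), stage as a covariate (2.65), block 3 alone (1.24) and block 4 alone (3.59), the B-catenin sire F in block 3 alone (2.99), and the Dkk sire F with the brightest probe (2.40), detected probes (2.55), left-out probes added (1.63) and block 4 alone (2.69).

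Leaving out one replicate gave Dkk changes of 0.36 to 0.39 at 18C and 0.26 to 0.32 at 15C, and in block 4 of 0.51 to 0.57 and 0.51 to 0.80, with an F between blocks of 2.44 (without replicate 1, not called) to 9.76. The Dkk change at 18C was not called without replicate 2, and at 15C without either. Wnt8 in block 4 at 18C was 0.14 to 0.18, not called either way. Dam F were 7.08 to 11.7 for Wnt8, 3.55 to 11.9 for frizzled9 and 2.05 to 5.58 for B-catenin. Sire F were 4.45 to 8.05 for Wnt8, 1.34 to 3.79 for frizzled9, 2.08 to 6.44 for B-catenin and 1.15 to 4.82 for Dkk. The lower values of the last 3 and of the B-catenin dam F, all without replicate 2, were not called. Leaving out one parent gave 0.20 to 0.39 for Dkk at 15C, 0.30 to 0.44 at 18C, an F between blocks of 7.48 to 16.7 and 0.10 to 0.21 for Wnt8 in block 4 at 18C.

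Cultures of the same replicate number did not deviate together (median correlations of -0.03 to 0.12 over 6 pairs of temperatures and blocks), so the numbers were not taken to pair cultures. With the replicate block the Dkk changes were 0.38 at 18C and 0.29 at 15C, and no call of the 4 genes for temperature or parents that was made without it was lost.

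Signal over background was low for some kept probes: those of Dkk averaged 0.82 to 1.99 log2 units above the negative controls over the blocks. In block 3 Wnt8 probe 10 averaged 0.61, Wnt8 probe 920 averaged 0.88 and frizzled9 probe 300 averaged 0.86. In block 4 Wnt8 probe 920 was detected in 43.2% of cultures and frizzled9 probe 300 in 36.8%.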
